A study of Mus musculus with 3 samples.

Results

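The genes described here are the 6 protein-coding genes of the mouse mitochondrial chromosome (chrM) that encode subunits of respiratory complexes III, IV and V: mt-Co1, mt-Co2, mt-Atp8, mt-Atp6, mt-Co3 and mt-Cytb. They were chosen by position on the 16299-bp chromosome of build mm9, and are 6 of the 13 protein-coding genes and of the 37 genes of any kind that RefSeq lists there. Chromatin immunoprecipitation followed by sequencing (ChIP-seq) was made from liver of C57Bl/6 males that were 2 to 3 months old. An antibody against the kinase mTOR, one against the nuclear receptor ERRα, or control rabbit immunoglobulin G (IgG) was used. All 3 groups come from the same strain, sex, age range and tissue, none of the labels names a treatment or an altered allele, and each group is 1 library. Chromatin of 26 livers was combined, and 8 immunoprecipitations were pooled for the mTOR and for the ERRα library, so animals cannot be compared. For IgG the sources used here give no such number.

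Mammalian mitochondria keep a small circular genome in many copies per cell. Its protein-coding genes all specify subunits of the oxidative phosphorylation system, which are built together with many more subunits encoded in the nucleus. Complex III passes electrons from ubiquinol to cytochrome c, complex IV passes them on to oxygen, and complex V uses the proton gradient to make ATP. ERRα is known as a regulator of nuclear genes of this system, and mTOR as a kinase that couples nutrient supply to growth and mitochondrial activity. No sequence of the members is printed, because none was used here.

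Values are coverage by sequence tags, scaled by the authors to 10000000 tags per library, and are written as units. The libraries held 62500000 (mTOR), 74200000 (ERRα) and 68800000 tags (IgG), so that 1 tag over a base was worth 0.16, 0.135 and 0.145 units. chrM took 0.293% of all coverage for mTOR, 0.0974% for ERRα and 0.0981% for IgG, and the mean coverage of covered autosomal bases was 0.626 to 0.628 units in every library. With 1 library a group there is no replicate check and no p-value. The 95% intervals given for ratios are exact (Clopper-Pearson) intervals on approximate numbers of tags and cover counting error only.

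Coverage reached only 2 of the 6 genes. mt-Cytb was covered over its whole length and mt-Co1 over most of it, while mt-Co2, mt-Atp8, mt-Atp6 and mt-Co3 had no covered base in any of the 3 libraries. The control lacked coverage there just as the ChIPs did, so these tracks hold no measurement of either protein at those 4 genes, and no ratio is given for them. Of the 4998 bases that lie in any of the 6 genes, 2640 had no mTOR coverage, 2641 no ERRα coverage and 2640 no IgG coverage, 52.8% in each library. Outside the members the share of bases without coverage was 12.6%, 12.6% and 12.7%.

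**Figure D1:**
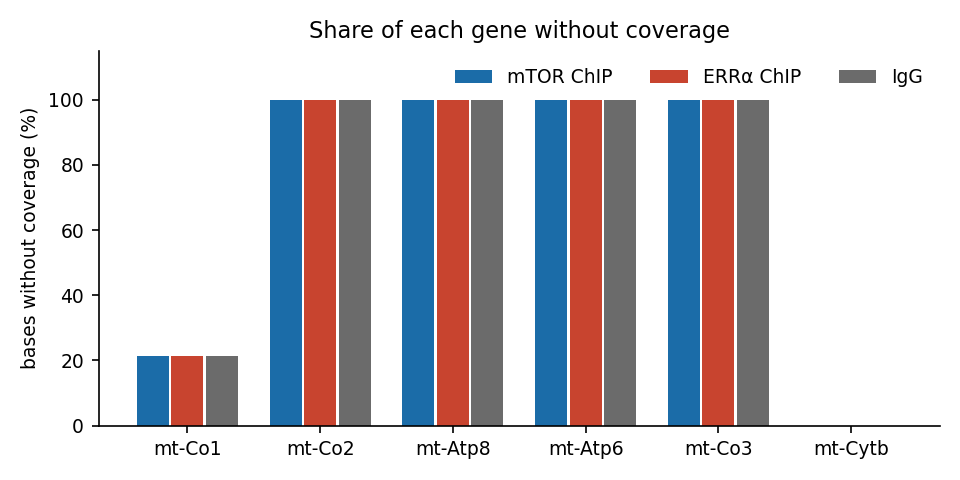
Share of the bases of each gene without coverage (vertical axis, percent), in gene order along chrM, with 1 bar per library. mt-Co2, mt-Atp8, mt-Atp6 and mt-Co3 stand at 100%, mt-Co1 at 21.4% to 21.5% and mt-Cytb at 0% in all 3 libraries.

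The uncovered genes encode subunits of complexes IV and V. mt-Co2 (chrM:7013-7696), which encodes the subunit that accepts electrons from cytochrome c, had 684 of 684 bases without coverage in each track. mt-Atp8 (chrM:7766-7969) and mt-Atp6 (chrM:7927-8607) encode membrane subunits of the ATP synthase and share 43 bp; all of their 204 and 681 bases were without coverage. mt-Co3 (chrM:8607-9390), a core subunit of cytochrome c oxidase that shares 1 bp with mt-Atp6, lacked coverage at all of its 784 bases. In RefSeq order mt-Co2 stands between the transfer RNA genes TrnD and TrnK, and TrnG follows mt-Co3. At the mean coverage of the covered part of chrM, mt-Co2 would have held about 10193 mTOR, 4021 ERRα and 3772 IgG tags; it held 0.

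The 4 genes lie inside 1 continuous stretch whose edges were nearly the same in the 3 libraries. It ran over chrM:6542-9681 (3140 bp) for mTOR, chrM:6541-9679 (3139 bp) for ERRα and chrM:6542-9683 (3142 bp) for IgG. The first uncovered base thus differed by 1 bp between tracks and the last by 4 bp. The stretch began inside mt-Co1, 1213 to 1214 bp after the start of that gene, and ended 289 to 293 bp past the end of mt-Co3. A shorter uncovered stretch followed at chrM:9970-10894 for mTOR, chrM:9970-10897 for ERRα and chrM:9961-10893 for IgG, and touched no member. Coverage between the stretches was low. Over chrM:9701-9800 and chrM:9801-9900 it was 12.4 and 18.0 units for mTOR, 6.13 and 7.64 for ERRα and 5.77 and 9.97 for IgG. The medians of 100-bp bins outside the members were 296.7, 113.7 and 123.6 units. Members held 64.8% to 64.9% of all uncovered bases of the chromosome. The sources used here do not say how reads that match the genome at several places were handled, and the part of such reads in the stretch was not tested.

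mt-Co1 (chrM:5328-6872, 1545 bp), the catalytic subunit of cytochrome c oxidase, lies next to TrnY and TrnS1. Its last 331 bases had no coverage in the mTOR ChIP and in IgG, and its last 332 had none in the ERRα ChIP. Coverage declined towards that edge from about 250 bp before it, where it was 434.5 units for mTOR, 145.9 for ERRα and 174.0 for IgG. At 150 bp before the edge (position 6392) it was 250.9 units for mTOR, 96.1 for ERRα and 105.5 for IgG. At 100 bp before it 46.4%, 52.7% and 53.6% of these levels were left, and at 50 bp before it 14.9%, 19.9% and 17.7%. The 3 tracks therefore descended together, with mTOR slightly below the others. Just inside the edge each track was flat for 33 to 35 bases ending at position 6536 or 6537, at 15.5 units for mTOR, 6.50 for ERRα and 8.10 for IgG, or about 97, 48 and 56 tags over each base.

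**Figure D2:**
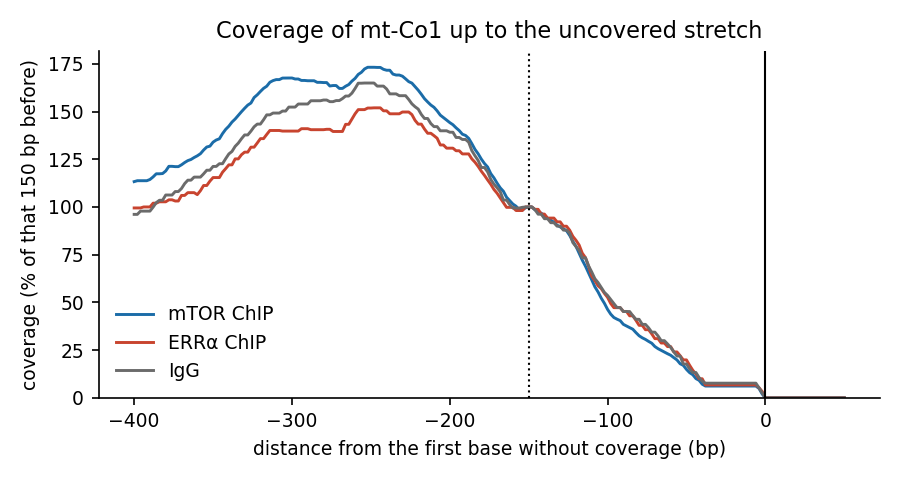
Coverage of the 3 libraries in mt-Co1 as a percentage of the level 150 bp before the uncovered stretch (vertical axis), against the distance from the first uncovered base in bp (horizontal axis; dotted line, 150 bp before). All 3 lines descend from about 250 bp before the edge, stand at 14.9% to 19.9% at 50 bp before it and reach 0 at the edge.

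In the part of mt-Co1 that all 3 tracks covered (1213 bases), mean coverage was 232.7 units for mTOR, 80.0 for ERRα and 90.8 for IgG. The mTOR ChIP stood well above the other libraries, and the ERRα ChIP slightly below IgG. mTOR was at 2.56 times IgG (interval 2.48 to 2.65) and at 2.91 times ERRα (2.81 to 3.01), while ERRα was at 0.881 times IgG (0.846 to 0.916). Against the mean of covered autosomal bases, mt-Co1 was at 371 times for mTOR, 127 times for ERRα and 145 times for IgG. The level in IgG shows the coverage that mt-Co1 had in a library made without a specific antibody. The amount of mitochondrial DNA carried into a library and binding of a protein to it cannot be told apart in a ratio to IgG over a whole gene.

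Coverage along mt-Co1 was uneven, in the same way in every library. In the mTOR ChIP it rose to 403.9 units at position 5927, dipped to 165.8 at 6078 and rose again to a maximum of 434.5 at 6292. The ERRα ChIP had 131.5 units at 5926, 61.2 at 6078 and 146.0 at 6295, and IgG had 159.7 at 5921, 68.0 at 6079 and 174.0 at 6291. The same 2 maxima and the dip between them thus appeared within 6 bp of each other in the ChIPs and in the control, and none of them was specific to an antibody. Over the 12 bins of 100 bp in mt-Co1 that were covered throughout, coverage spanned 3.42-fold for mTOR, 2.70-fold for ERRα and 3.21-fold for IgG. The log2 bin values of mTOR and IgG had a Pearson correlation of 0.99, and those of ERRα and IgG of 0.98; these describe neighbouring bins that share tags, and are not tests.

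**Figure D3:**
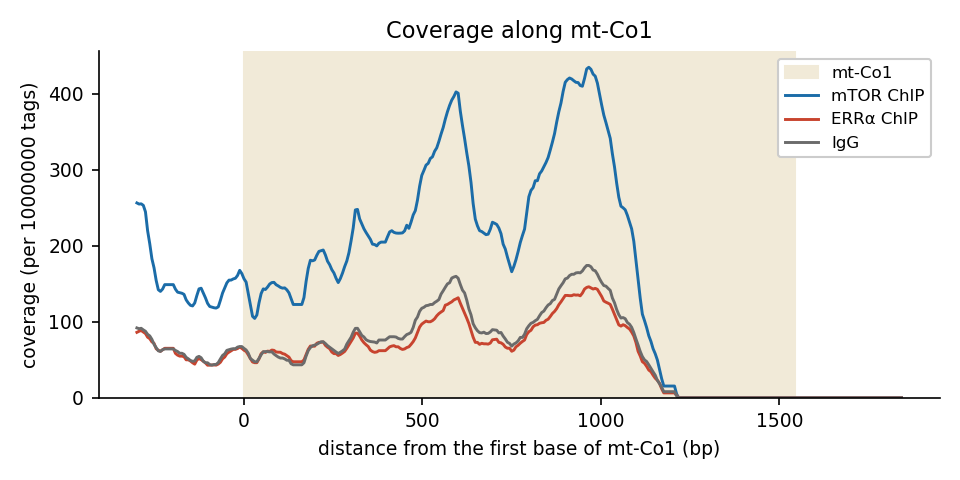
Coverage in units per 10000000 tags (vertical axis) against the distance from the first base of mt-Co1 in bp (horizontal axis) for the 3 libraries; the shaded area is the gene. The 3 lines share 2 maxima near 600 and 960 bp and a dip near 750 bp, and are at 0 from 1213 or 1214 bp on.

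Ratios to IgG removed most of this unevenness. From bin to bin mTOR over IgG varied 1.25-fold in mt-Co1, with a median of 2.55. The highest bin, chrM:5401-5500, had 137.4 units in the mTOR ChIP and 49.8 in IgG, a ratio of 2.76 (2.36 to 3.23), and the lowest, chrM:6401-6500 beside the uncovered stretch, had 119.95 and 54.5, a ratio of 2.20 (1.89 to 2.57). These intervals overlap, and in none of the 12 bins did the interval exclude the ratio of the whole gene. Over longer parts, mTOR over IgG was 2.64 (2.49 to 2.80) in the first 515 bp and 2.56 (2.46 to 2.68) in the next 515 bp. In the remaining 183 covered bases it was 2.29 (2.053 to 2.556), an interval that ends just below the ratio of the whole gene (2.562). ERRα over IgG was highest in the same bin, chrM:5401-5500, at 1.09 (0.910 to 1.31), and lowest at chrM:5901-6000, at 0.821 (0.726 to 0.926). The interval of ERRα over IgG lay below 1 in 5 of the 12 bins and included 1 in 7. By position, ERRα over IgG was 0.926 (0.865 to 0.992) over the first 515 bp of mt-Co1, 0.851 (0.807 to 0.897) over the next 515 bp and 0.903 (0.794 to 1.03) over the remaining 183 covered bases, and the intervals overlap.

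mt-Cytb (chrM:14145-15288, 1144 bp) is the single member of complex III; cytochrome b carries the quinone-binding sites of that complex. RefSeq places it between TrnE and TrnT. No base lacked coverage in any track. Mean coverage was 444.3 units for mTOR, 149.6 for ERRα and 161.7 for IgG, the order seen in mt-Co1 at higher levels. Per base, coverage of mt-Cytb was 1.91 times that of the covered part of mt-Co1 for mTOR, 1.87 times for ERRα and 1.78 times for IgG, or 1.77, 1.75 and 1.66 times with the 150 bp beside the uncovered stretch left out of mt-Co1. The higher level of mt-Cytb was thus present in the control too.

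mTOR over IgG was 2.75 (2.68 to 2.82) in mt-Cytb, and this interval does not overlap that of mt-Co1 (2.48 to 2.65). Both intervals cover counting error only. Repeated tags, whose share was not tested, could make them too narrow for so small a gap. ERRα over IgG was 0.925 (0.898 to 0.954), which overlaps the interval in mt-Co1, and mTOR over ERRα was 2.97 (2.90 to 3.05). Next to the gene the mTOR ratio was lower: 2.30 (2.20 to 2.40) over the 500 bp before mt-Cytb and 2.39 (2.30 to 2.49) over the 500 bp after it. Neither flank's interval reaches that of the gene. The flank after mt-Cytb was uneven, with bins at 2.16 to 2.23 over chrM:15301-15600, 2.89 at chrM:15601-15700 and 4.17 at chrM:15701-15800. For ERRα the flanks were at 0.844 (0.800 to 0.890) and 0.845 (0.807 to 0.885), also below the gene. Before mt-Co1 the pooled order was the opposite for mTOR, with 2.95 (2.79 to 3.13) over the 500 bp upstream against 2.56 in the gene. The far end of that flank was high, at 4.23 in chrM:4801-4900 and 3.14 in chrM:4901-5000. Nearer the gene, the bins of chrM:5001-5300 were at 2.37 to 2.65, close to the ratio of the gene. The 500 bp after mt-Co1 were uncovered.

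**Figure D4:**
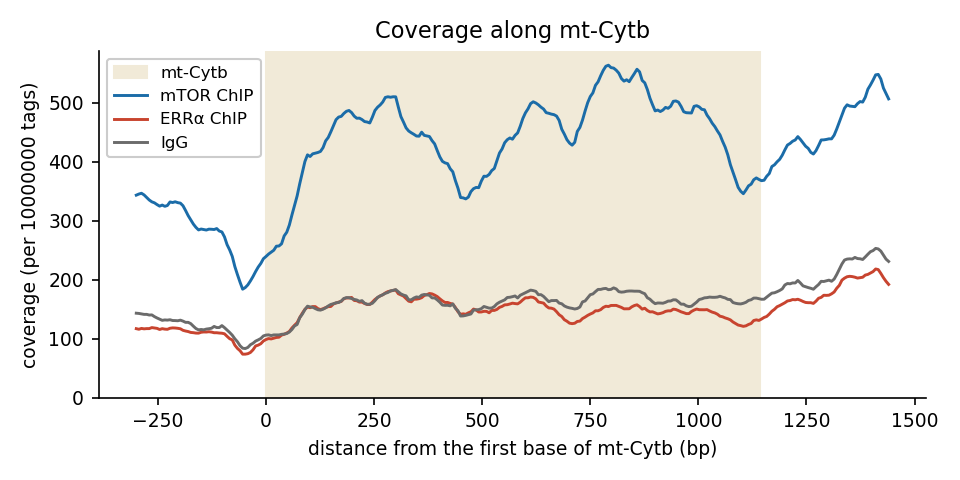
Coverage in units per 10000000 tags (vertical axis) against the distance from the first base of mt-Cytb in bp (horizontal axis) for the 3 libraries; the shaded area is the gene. mTOR coverage has maxima of 511.6 and 563.6 units with a minimum of 337.1 between them, and the ERRα line runs with IgG in the first part of the gene and below it in the last part. The IgG and ERRα lines also dip near 450 bp.

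Inside mt-Cytb the profile of mTOR was less like that of IgG than in mt-Co1. mTOR coverage had maxima of 511.6 units at position 14428 and 563.6 at 14936, with a minimum of 337.1 at 14608. IgG rose and dipped at similar places, with 183.4 units at 300 bp from the gene start, 138.6 at 450 bp and 186.3 at 804 bp. ERRα had 182.7, 141.6 and 156.5 units at these points. The dip was thus present in the control too. A maximum or minimum was listed only where it stood out by 25% of the highest value of its track. By that cutoff none was listed for IgG (highest value 186.4 units), and only the maximum of 182.7 at 14444 for ERRα. The coefficient of variation over the 12 bins was 18.7% for mTOR, 13.8% for ERRα and 12.9% for IgG. Correlations of the log2 bin values were 0.92 for mTOR and IgG, 0.85 for ERRα and IgG and 0.81 for mTOR and ERRα, lower than the 0.98 to 0.99 in mt-Co1, over a narrower range of levels.

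The bins with the highest mTOR ratio lay in the later part of mt-Cytb. At chrM:15001-15100 coverage was 508.0 units for mTOR, 148.0 for ERRα and 167.2 for IgG, which puts mTOR at 3.04 times IgG (2.80 to 3.30). In the bin that spans the end of the gene, chrM:15201-15300, mTOR fell back to 374.5 units with IgG at 164.97, a ratio of 2.27 (2.08 to 2.48), whose interval does not meet the one above. Between these bins IgG coverage stayed nearly level, while mTOR and ERRα coverage (128.9 units in the second) dropped. mTOR over IgG varied 1.34-fold over the 12 bins. The interval lay above the ratio of the whole gene in 2 bins and below it in 4, against 0 and 0 in mt-Co1. These counts are at unlike depth. Median IgG coverage of a bin was 79.9 units in mt-Co1 and 164.3 in mt-Cytb, so intervals in mt-Co1 are wider and exclude a ratio less easily.

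ERRα over IgG declined along mt-Cytb. It was 0.996 (0.945 to 1.05) over the first 381 bp, 0.938 (0.891 to 0.989) over the next 381 bp and 0.849 (0.806 to 0.895) over the last 382 bp. The first and last of these intervals do not overlap. The highest bin was chrM:14501-14600 with 1.02 (0.921 to 1.13), and the lowest was chrM:15201-15300, which was also the lowest for mTOR, with 0.782 (0.702 to 0.869). In no bin of mt-Cytb did the interval lie above 1. mTOR over IgG was 2.75, 2.67 and 2.83 over the same 3 parts, with overlapping intervals, and mTOR over ERRα, which does not involve IgG, rose from 2.76 (2.64 to 2.88) to 3.33 (3.18 to 3.48) from the first part to the last.

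**Figure D5:**
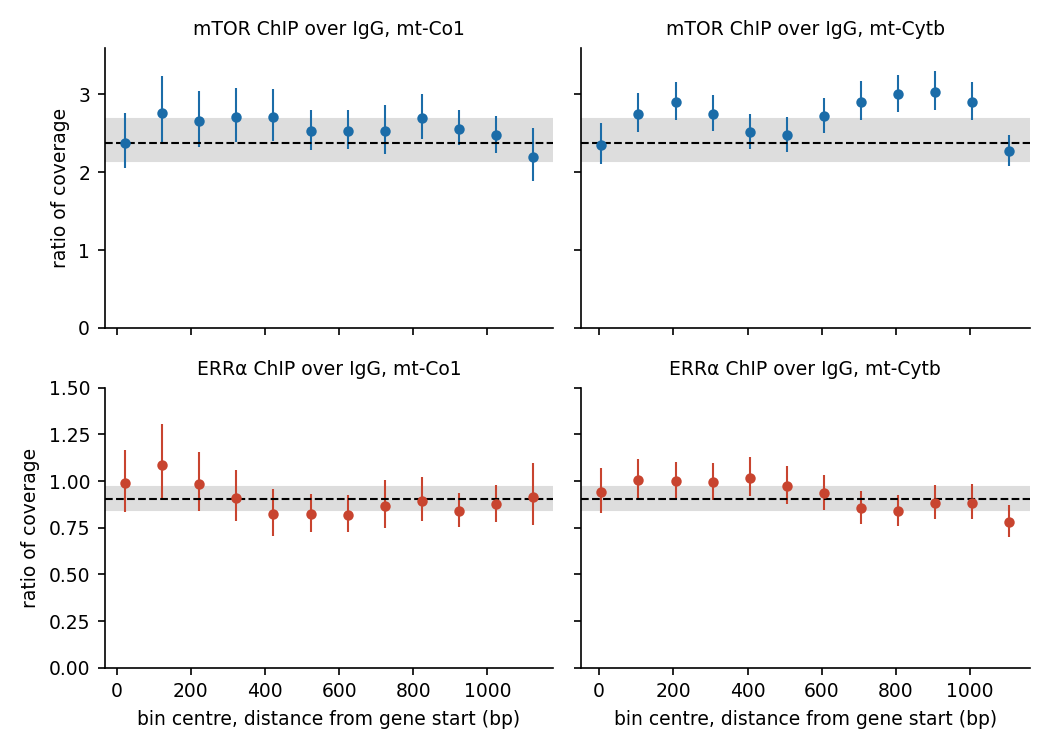
Ratio of coverage to IgG (vertical axes, starting at 0) in 100-bp bins of mt-Co1 (left) and mt-Cytb (right), by distance from the gene start in bp, for the mTOR ChIP (top) and the ERRα ChIP (bottom). Points are bins with 95% counting intervals, dashed lines the median of the 95 chrM bins outside the members, 2.37 for mTOR and 0.902 for ERRα, and grey bands their quartiles.

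The members were then set beside the rest of chrM in the same 100-bp bins. A bin was counted as past the fold for mTOR at 3 times IgG; 20 of 119 covered bins of chrM (16.8%) passed. None of the 12 bins of mt-Co1 and 2 of the 12 of mt-Cytb did, chrM:14901-15000 and chrM:15001-15100, at ratios of 3.00 and 3.04 whose intervals both include 3. A share of 2 in 12 is near that of the chromosome and is no result about mt-Cytb. At 2 times IgG all 24 member bins passed, beside 92.4% of all bins. For ERRα, 0 of the 24 member bins reached 1.5 times IgG, beside 7.56% of all bins, and 0 were at or below 0.67 times, beside 0% of all bins. None of these counts has a replicated test behind it.

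The median mTOR ratio was 2.67 over the 24 member bins and 2.37 over the 95 bins outside, with a 5th to 95th percentile of 1.97 to 4.43 outside. The median ERRα ratio was 0.903 in the members and 0.902 outside. By pooled coverage the order was reversed for mTOR: bases outside the members were at 3.05 times IgG (3.02 to 3.08), above both mt-Co1 and mt-Cytb. Of the bins outside, 18 passed 3 times IgG and the highest reached 16.9 times. ERRα outside was at 1.01 times IgG by pooled coverage (0.997 to 1.02), also above both genes, with a highest bin of 3.13 times. The highest member bins were at 3.04 times for mTOR and 1.09 times for ERRα. The 3 outside bins most like the median member bin in both log2 ratios were chrM:1401-1500, chrM:1501-1600 and chrM:1601-1700, at 2.69, 2.64 and 2.59 times IgG for mTOR and 0.916, 0.892 and 0.883 times for ERRα.

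Tags piled deeply on the covered members. If every start position and strand were counted once, at most 300 tags of 150 bp could overlap a base. The maximum was about 2716 tags in mt-Co1 and 3523 in mt-Cytb for mTOR, 1083 and 1356 for ERRα, and 1197 and 1282 for IgG. The tracks thus counted more than 1 tag per start and strand, from 3.61 to 11.7 times as many at these maxima. Tags that are copies of one molecule would make the true errors wider than the counting intervals, and the share of such copies was not tested.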

How the data were processed

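The files are tracks of signal (coverage by tags along the genome, build mm9), deposited on a scale of 10000000 tags, to which the authors normalized them per the file headers. The submitters' processing notes list BWA 0.5.9 and MACS 1.4.1, with no role. The sources used here do not name the program behind the tracks, the tag extension or the treatment of duplicate or multiply matching reads. Coverage summed to 149 to 150 bp per tag, so 150 bp was used to approximate tags. Intervals were read as bedGraph (a start is not included); if the tracks count otherwise, edges move by 1 bp. IgG ended at 16301, past the chromosome, and was clipped.

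Ratios are of summed coverage over bases covered in all 3 tracks, without a pseudocount. Bins of 100 bp were counted from base 1 and kept where fully covered; a bin belonged to a gene that held at least 50% of it. The rule for named items was all 6 genes, the extreme bins and stretch edges of each, and the 3 most similar outside bins; maxima and minima of coverage, the flanks, the parts of genes and the flat run were added after seeing the data. Members and lists were chosen with earlier results of these data known. The functions recovered 10 of 10 known values on simulated data, a check of the code that had to pass before the other steps ran. Its tags were drawn independently, and whether the counting intervals held the true ratios was not checked. No mm9 annotation or sequence was used, so promoters of nuclear partner genes and shared 50-base sequences were not analysed here. RefSeq names came from assembly GRCm38.p6, without coordinates. Python 3.11.15, NumPy 2.4.6, SciPy 1.17.1, pandas 2.3.3 and Matplotlib 3.10.9 were used.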

Additional observations from a re-analysis of the deposited data

How the results depend on the processing

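Scaling to autosomal coverage, leaving out bases within 150 bp of an uncovered base, a minimum of 20 units of IgG and 1 unit added to both libraries kept each ratio of mt-Co1 and mt-Cytb inside its counting interval. So did the median of per-base ratios, except for mTOR over ERRα in mt-Cytb (2.89). The 150-bp and 20-unit settings removed no base of mt-Cytb, so they could not change its ratios. Autosomal means were nearly equal (0.626 to 0.628 units) and 1 unit was small beside the means of both genes. Those settings could therefore move the ratios only slightly. Divided by the ratio of all chrM bases outside the members, mTOR over IgG was 0.840 in mt-Co1 and 0.901 in mt-Cytb, and mTOR over ERRα 0.962 and 0.982, all turned below 1, while ERRα over IgG stayed below 1 at 0.873 and 0.917. Divided by the median bin outside instead, an alternative added after seeing the data, mTOR over IgG was 1.08 and 1.16, mTOR over ERRα 1.11 and 1.13, and ERRα over IgG 0.976 in mt-Co1 and 1.03 in mt-Cytb, the last turned above 1. Against the rest of chrM the direction thus depended on the reference for the mTOR ratios of both genes and for ERRα over IgG in mt-Cytb, and not for ERRα over IgG in mt-Co1. Member bins at 3 times IgG numbered 2 of 24, but 4 of 46 with 50-bp bins, 0 of 10 with 200-bp bins and 24 at a minimum of 2 times. Counting coverage below 1 or 5 units as uncovered changed the uncovered bases of no gene by more than 3. No library could be left out, and no paired analysis was possible because each group has 1 library.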
